A study of Danio rerio with 11 samples.

Results

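The genes described here are 8 zebrafish regulators of meiotic arrest and maturation of the oocyte: fbxo43, mos, ccnb1, ccnb2, cdk1, cdc20, wee2 and plk1. They were chosen by name, with earlier results of these data known, and all 8 were found among the 31952 gene IDs used. Of these genes, 7 passed a filter on low values (1 FPKM or more in 2 or more libraries) and were tested, among 13862 gene IDs in all, and mos was listed at 0 in every library. The libraries hold polyadenylated RNA from ovarian oocytes of juvenile females aged 3 months, 2 libraries in each of 4 groups. The groups were stage II oocytes of znf706 mutants, stage II oocytes of wild type (WT), stage I oocytes of znf706 mutants and stage I oocytes of WT. The mutants were homozygous for the CRISPR/Cas9 allele tsu7d of znf706, a zinc finger gene, and WT fish carried no stated alteration. About 150 stage II or 600 stage I oocytes were pooled by hand for each library after ovaries were dissociated with a digestion buffer. The pools of a group were described as biological replicates, but the number of fish behind each pool was not given in the sources used here.

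Oocytes of vertebrates stop in prophase of the first meiotic division, grow, and resume meiosis only when a maturation signal arrives. Resumption is driven by maturation-promoting factor, the kinase Cdk1 bound to a B-type cyclin. Wee2 and related kinases hold Cdk1 inactive by phosphorylating it, and Plk1 helps to remove that brake. The anaphase-promoting complex, activated by Cdc20, destroys cyclin B, and Fbxo43 (also called Emi2) inhibits that complex in the egg of frogs and mice, downstream of the kinase Mos. Stage I (primary growth) and stage II (cortical alveolus) oocytes both precede maturation, and much of the mRNA for these proteins is stored. RNA levels in this series therefore describe transcripts and not kinase activity.

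The 8 libraries summed to 653659 to 899582 FPKM (fragments scaled to transcript length and library size), and 11992 to 12691 genes reached 1 FPKM in each. Their absolute depth is unknown. znf706 itself had 129 and 142 FPKM in mutant stage II libraries, against 158 and 143 FPKM in WT stage II libraries. It had 181 and 147 FPKM in mutant stage I libraries, against 232 and 238 FPKM in WT stage I libraries. What tsu7d changes in the transcript was not given in the sources used here, so these levels do not test the labels. All 9 oocyte markers listed reached 1 FPKM. They summed to 3388 to 3609 FPKM in mutant stage II libraries, against 4450 to 4496 FPKM in WT stage II libraries. At stage I the sums overlapped, at 6128 to 6371 FPKM in mutant libraries, against 5898 to 6377 FPKM in WT libraries. Most of each sum came from zp3b, zp2.5, zar1 and buc, so it says little of the lower markers. Figla had 120.7 and 103 FPKM in mutant stage I libraries, against 15.6 and 14.4 FPKM in WT stage I libraries. At stage II figla had 57.8 and 52.7 FPKM in mutant libraries, against 8.35 and 10.04 FPKM in WT libraries. Ddx4 was lower at stage I, at 48.5 and 50.4 FPKM in mutant libraries, against 92.98 and 68.78 FPKM in WT libraries. Of the 9, 3 rose and 3 fell in mutants at stage II, and 2 rose and 1 fell at stage I (limma, adjusted p under 0.05). In pools like these, fewer cells of a type and less RNA per cell cannot be told apart.

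Between them, the 7 tested genes covered a wide range of levels. Averaged over the 8 libraries, ccnb2 and ccnb1 ranked 103 and 104 of the 13862 tested genes by FPKM, cdc20 202, plk1 314, fbxo43 730, cdk1 773 and wee2 4108. Transcripts of the B-type cyclins were thus among the most abundant per length, and those of their kinase partner cdk1 were several times lower in every library. The 8 genes together made up 0.510% and 0.501% of the summed FPKM in mutant stage II libraries, against 0.458% and 0.467% in WT stage II libraries. They made up 0.495% and 0.544% in mutant stage I libraries, against 0.400% and 0.389% in WT stage I libraries. At each stage both mutant libraries lay above both WT libraries. Most of the members' sum came from ccnb1, ccnb2 and cdc20. At stage II that sum was 3337 and 3341 FPKM in mutant libraries, against 3267 and 3241 FPKM in WT libraries. The total over all genes was 653659 and 666218 FPKM in those mutant libraries, against 712725 and 694210 FPKM in WT. The higher share at stage II thus came in part from the lower total.

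**Figure D1:**
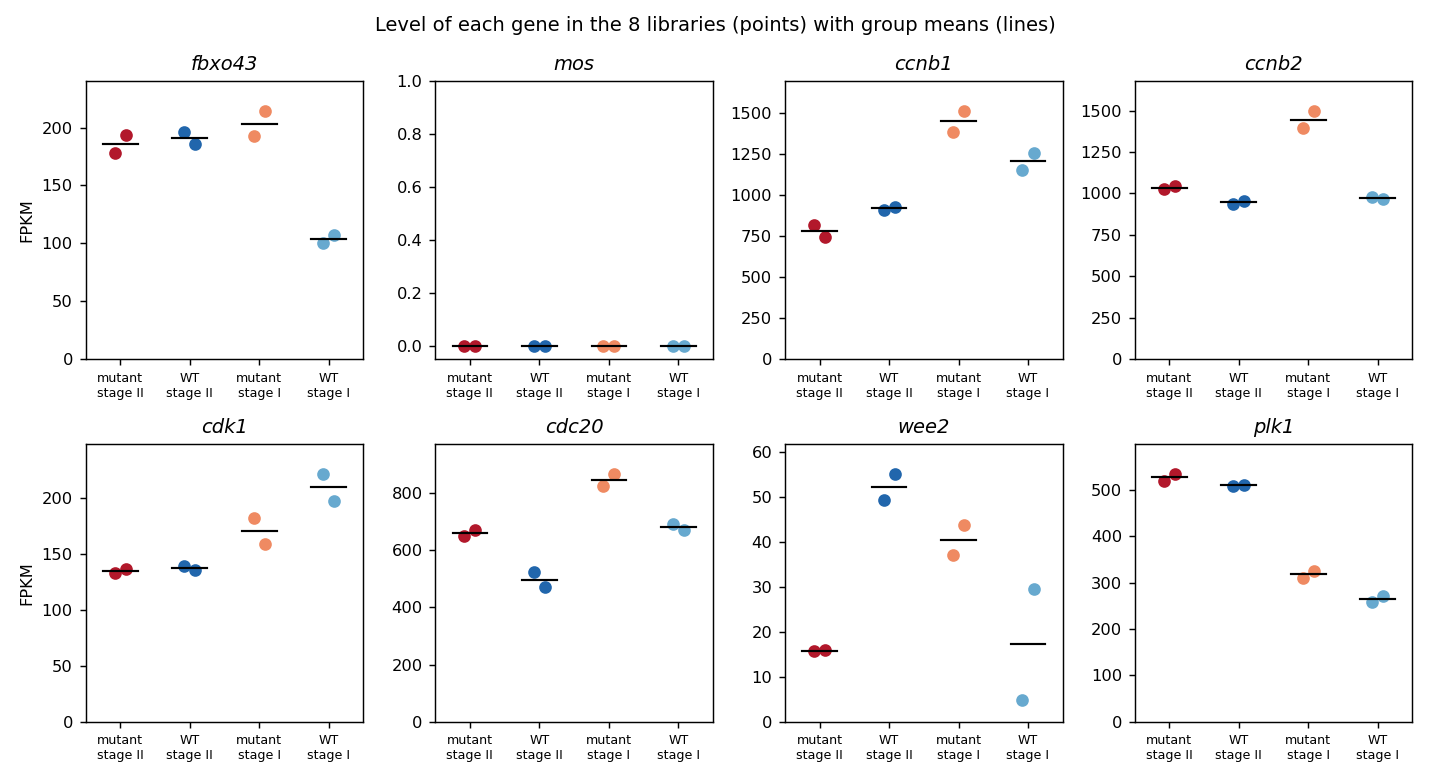
FPKM (vertical axis, starting at 0) of the 8 genes in each library, 1 panel per gene; points are libraries, and bars are the means of the 2 libraries of a group. The WT stage I libraries hold the lowest 2 values of fbxo43 (100.4 and 107 FPKM), wee2 spreads from 4.90 to 29.6 FPKM between them, and mos is at 0 throughout.

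At stage I, the genes rose in the mutants more often than they fell. Against WT, fbxo43, ccnb2, cdc20, ccnb1 and plk1 rose and cdk1 fell, at a Benjamini-Hochberg adjusted p under 0.05 in a limma fit over all tested genes. Over all tested genes, 18.4% were called higher and 26.9% lower in stage I mutants, 45.3% in all. The median log2 fold change was 0.31 over the 7 genes and -0.08 over all tested genes. At stage II the picture was narrower: cdc20 alone was called, higher in the mutants, where 25.4% of all tested genes were called higher and 19.2% lower (44.6% in all). The median there was -0.03 over the 7 genes and 0.07 over all tested genes. Every fold change below is a difference of log2(FPKM + 1) values, given with the SE of the fit, and is mutant over WT unless another pair is named. In 6 of the 7 genes both mutant stage I libraries lay above both WT libraries and in 1 below, where 30.4% of all tested genes lay above without overlap and 42.3% below. At stage II 3 lay above and 2 below, where 43.0% of all tested genes lay above and 32.4% below.

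At stage I, fbxo43 had the smallest adjusted p of the 7 genes. Its transcript (ENSDARG00000104186) had 178 and 193 FPKM in mutant stage II libraries, against 196 and 186 FPKM in WT stage II libraries. At stage I it had 192 and 215 FPKM in mutant libraries, against 100.4 and 107 FPKM in WT libraries. The stage II groups overlapped, whereas at stage I both mutant libraries lay well above both WT libraries and near the stage II level. The fold change was -0.04 ± 0.08 at stage II (adjusted p = 0.71) and 0.96 ± 0.08 at stage I (adjusted p = 7.9e-05). The difference between the genotype effects of the stages was itself called, at -1.0 ± 0.11 (stage II less stage I, adjusted p = 6.0e-04), as it was for 36.4% of all tested genes. All 4 members called in that test had the lower effect at stage II, as 13.0% of all tested genes did, against 23.3% with the higher effect there. The stage I call held in each of 20 alternative settings, between 0.88 and 1.07.

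Cdc20, which activates the anaphase-promoting complex that Fbxo43 inhibits, was the member called at both stages. It (ENSDARG00000100741) had 651 and 669 FPKM in mutant stage II libraries, against 522 and 472 FPKM in WT stage II libraries. Stage I values were 823 and 868 FPKM in mutant libraries, against 692 and 671 FPKM in WT libraries. Mutant libraries were higher at each stage with no overlap. The fold change was 0.41 ± 0.08 at stage II (adjusted p = 0.0039), a call that held in each of 20 alternative settings. At stage I it was 0.31 ± 0.08 (adjusted p = 0.012), a call lost without WT replicate 2 (adjusted p = 0.052) or without mutant replicate 2 (adjusted p = 0.066). The difference between the stages was 0.10 ± 0.11, which did not pass the test (adjusted p = 0.49), though it did with quantile normalization, at 0.30 (adjusted p = 0.037).

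Both cyclin B genes were called higher in mutants in the stage I pools, but only ccnb2 in each alternative setting. Their products are the regulatory subunits of maturation-promoting factor. For ccnb2 (ENSDARG00000036180), mutant stage II libraries had 1025 and 1044 FPKM, against 939 and 953 FPKM in WT stage II libraries. At stage I the mutant libraries had 1393 and 1499 FPKM, against 977 and 966 FPKM in WT libraries. The stage I mutants stood apart from the other 6 libraries, which lay between 939 and 1044 FPKM. The ccnb2 fold change was 0.13 ± 0.07 at stage II (adjusted p = 0.19) and 0.57 ± 0.07 at stage I (adjusted p = 5.8e-04). The stage I call held in each of 20 alternative settings, between 0.48 and 0.68.

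The other cyclin gene, ccnb1 (ENSDARG00000051923), had 816 and 748 FPKM in mutant stage II libraries, against 913 and 929 FPKM in WT stage II libraries. At stage I it had 1389 and 1516 FPKM in mutant libraries, against 1157 and 1257 FPKM in WT libraries. Mutants were thus below WT at stage II and above it at stage I, without overlap in either. The fold change was -0.24 ± 0.09 at stage II (adjusted p = 0.057) and 0.27 ± 0.09 at stage I (adjusted p = 0.037). That stage I call was narrow and held in 9 of 20 alternative settings. It was lost in 6 of the 8 fits that left out a library, and without WT replicate 1 the value was 0.21. No filter (adjusted p = 0.065), quantile normalization (0.20) or no trend in the prior (0.070) also ended it. So did the replicate number as a block (0.057) or only the libraries compared (0.10). The difference between the stages was called for both genes, at -0.50 ± 0.12 for ccnb1 (adjusted p = 0.015) and -0.44 ± 0.10 for ccnb2 (adjusted p = 0.013). For ccnb1 the call depended on replicate 2 of the stage I mutants (adjusted p = 0.052 when left out) and replicate 2 of the stage II mutants (adjusted p = 0.068), and for ccnb2 on replicate 1 of the stage II mutants (adjusted p = 0.054). Quantile normalization ended both calls (adjusted p = 0.60 for ccnb1 and 0.83 for ccnb2).

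Cdk1, the catalytic subunit that both cyclins bind, went against its partners at stage I. It (ENSDARG00000087554) had 133 and 136 FPKM in mutant stage II libraries, against 139 and 135 FPKM in WT stage II libraries. The stage I values were 182 and 158 FPKM in mutant libraries, against 222 and 197 FPKM in WT libraries. The stage II libraries overlapped within a narrow range, and the stage I mutants lay below WT. The fold change was -0.03 ± 0.09 at stage II (adjusted p = 0.82) and -0.30 ± 0.09 at stage I (adjusted p = 0.026). The stage I call held in 13 of 20 alternative settings. Without WT stage I replicate 1 (-0.21) or mutant stage I replicate 2 (-0.20) it was lost, as it was with median-of-ratios scaling (-0.19, adjusted p = 0.10). No filter, no trend in the prior, only the libraries compared or scaling to equal summed FPKM also ended it (adjusted p = 0.052 to 0.072). On another zebrafish assembly than that of the files, GRCz12tu, cdk1 overlaps a second protein-coding gene, LOC141378555, and whether the counting used strand was not stated.

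Ratios taken within a library do not depend on a factor applied to the whole library, though quantile normalization can change them. The summed FPKM of ccnb1 and ccnb2 was 13.9 and 13.2 times that of cdk1 in mutant stage II libraries, against 13.3 and 13.9 times in WT stage II libraries. At stage I the ratio was 15.3 and 19.0 in mutant libraries, against 9.63 and 11.3 in WT libraries. Stage II libraries of both genotypes thus overlapped, while the stage I mutants lay above them and stage I WT below. Within the cyclins, ccnb2 over ccnb1 was 1.25 and 1.40 in mutant stage II libraries, against 1.03 and 1.03 in WT stage II libraries, and 1.00 and 0.989 in mutant stage I libraries, against 0.845 and 0.769 in WT stage I libraries. At each stage the mutants had the higher share of ccnb2. With 2 libraries against 2, no permutation test of a ratio could reach a p under 0.05, and none was made.

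For the antagonists cdc20 and fbxo43 the order turned round between the stages. Cdc20 over fbxo43 was 3.66 and 3.46 in mutant stage II libraries, against 2.66 and 2.54 in WT stage II libraries. It was 4.28 and 4.05 in mutant stage I libraries, against 6.89 and 6.26 in WT stage I libraries. The mutant ratio was the higher at stage II and the lower at stage I, with no overlap at either stage.

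**Figure D2:**
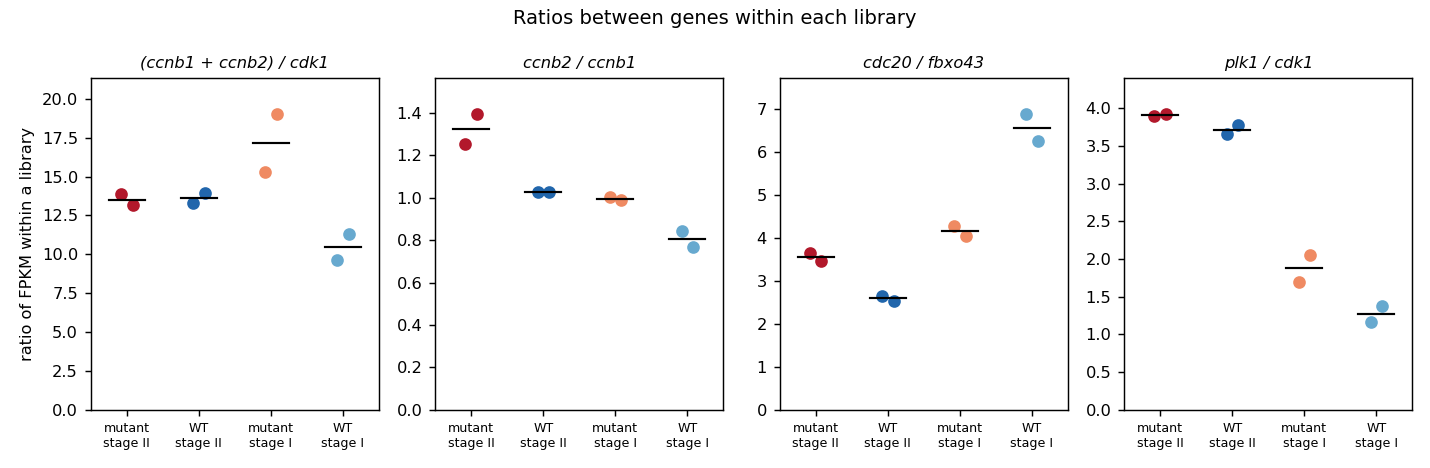
Ratios of FPKM within each library (vertical axes, no unit) for 4 pairs of genes; points are libraries, coloured by group, with bars at the group means. The cyclin B to cdk1 ratio is between 13.2 and 13.9 in all 4 stage II libraries, 15.3 and 19.0 in mutant stage I libraries and 9.63 and 11.3 in WT stage I libraries.

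Wee2 was the least abundant of the tested members and the one whose replicates differed most. Its product is an oocyte kinase that in mice keeps Cdk1 inactive during prophase arrest. The transcript (ENSDARG00000012718) had 15.7 and 15.9 FPKM in mutant stage II libraries, against 49.4 and 55.3 FPKM in WT stage II libraries. At stage I it had 37.2 and 43.8 FPKM in mutant libraries, against 4.90 and 29.6 FPKM in WT libraries. At stage II the mutants were below WT, at stage I above it, without overlap in either pair. The gap between the WT stage I libraries was 6.04-fold, and 30 of the 13862 tested genes (0.216%) had a larger gap between those libraries.

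That gap enters the pooled spread of every wee2 test. The fold change was -1.66 ± 0.61 at stage II (adjusted p = 0.058) and 1.62 ± 0.61 at stage I (adjusted p = 0.062), so neither was called. With WT stage I replicate 1 left out (4.90 FPKM), the values were -1.66 at stage II (adjusted p = 1.7e-04) and 0.43 at stage I (adjusted p = 0.041). With WT stage I replicate 2 left out they were -1.66 (adjusted p = 1.9e-04) and 2.81 (adjusted p = 8.0e-05). The lone WT stage I library is then assumed to vary like the other groups. The size of the stage I difference thus rested on which WT library was kept, whereas the stage II values do not involve those libraries except through the spread. The difference between the stages was called at -3.29 ± 0.86 (adjusted p = 0.021); it was lost in each of the 6 fits that left out a library other than those of stage I WT, with adjusted p of 0.050 to 0.072. It ranged from -4.47 to -2.10 over all 8 such fits. No filter (adjusted p = 0.073) or a robust prior (adjusted p = 0.094) also ended the call.

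Plk1, the Polo kinase that acts on the Cdk1 brake and on the meiotic spindle, separated the stages more than the genotypes. It (ENSDARG00000058471) had 518 and 535 FPKM in mutant stage II libraries, against 509 and 510.1 FPKM in WT stage II libraries. In the stage I pools it had 309 and 325 FPKM in mutant libraries, against 257 and 272 FPKM in WT libraries. Mutant libraries were the higher at both stages, by little at stage II. The fold change was 0.05 ± 0.07 at stage II (adjusted p = 0.58) and 0.26 ± 0.07 at stage I (adjusted p = 0.013). The stage I call was lost without WT replicate 1 (adjusted p = 0.062) or mutant replicate 2 (adjusted p = 0.067). Quantile normalization also ended it (0.17, adjusted p = 0.069), but plk1 was then called at stage II, at 0.25 (adjusted p = 0.019). The difference between the stages, -0.21 ± 0.09, did not pass the test (adjusted p = 0.10), but with median-of-ratios scaling it was called, at -0.42 (adjusted p = 0.039). Within a library, plk1 over cdk1 was 3.90 and 3.93 in mutant stage II libraries, against 3.66 and 3.77 in WT stage II libraries, and 1.70 and 2.05 in mutant stage I libraries, against 1.16 and 1.38 in WT stage I libraries.

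Mos (ENSDARG00000069744), the kinase that starts the MAP kinase cascade in maturing oocytes, was listed at 0 FPKM in all 8 libraries. A listed 0 in this table need not be a measurement of absence. In every library 7857 of the 31952 gene IDs used were at 0, and whether the 0 of mos is an absence was not tested. Among genes of the same pathways, cdc26, a subunit of the anaphase-promoting complex that dividing cells use, was also at 0 throughout. Its fellow subunit anapc11 was at 0 in 7 libraries and at 140 FPKM in WT stage I replicate 2. Across the table, 20 gene IDs were at 0 in 1 library of a group and at 50 FPKM or more in the other. No level or difference can therefore be given for mos.

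**Figure D3:**
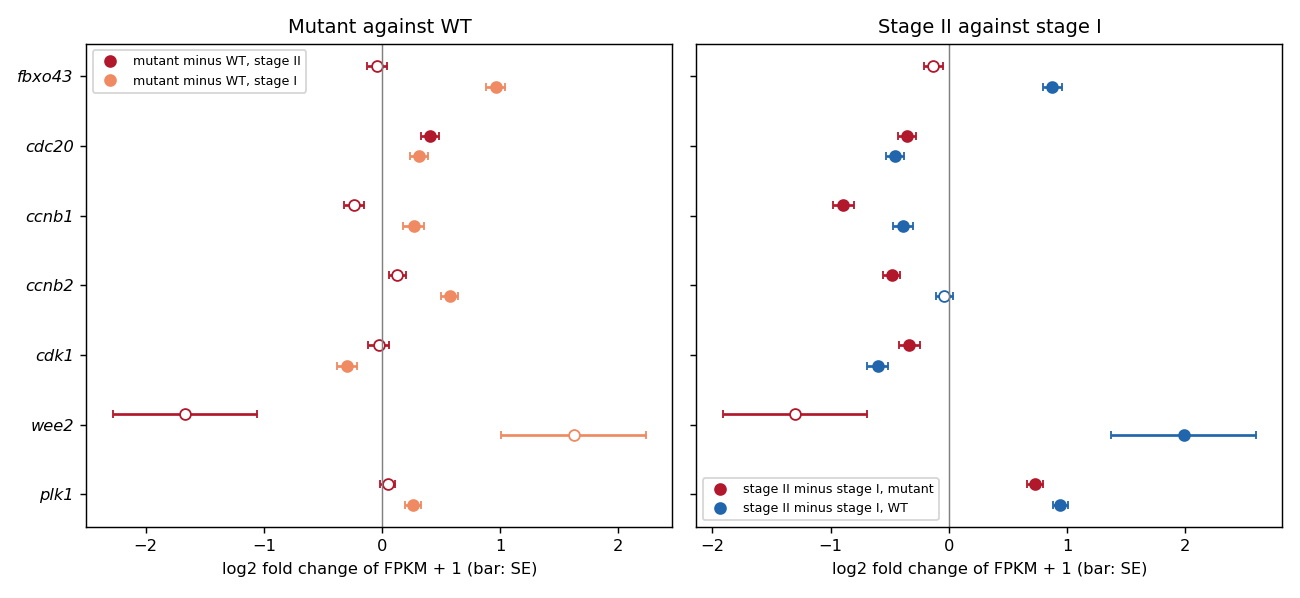
Log2 fold changes of log2(FPKM + 1) with SE bars for the 7 tested genes, mutant over WT at each stage on the left and stage II over stage I in each genotype on the right; filled points have an adjusted p under 0.05. Fbxo43 is at 0.96 at stage I and -0.04 at stage II on the left, and plk1 is at 0.73 in the mutants and 0.94 in WT on the right.

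The comparison of stage II with stage I asks which transcripts changed relative to the other RNA of their libraries. FPKM do not give amounts per oocyte, so a rise or fall here need not be one per oocyte. With FPKM as deposited, plk1 rose and cdc20, cdk1 and ccnb1 fell in both genotypes, and these were the genes called in both. In the mutants 1 of 7 rose and 4 fell (plk1 higher; ccnb1, ccnb2, cdc20 and cdk1 lower), where 47.3% of all tested genes were called higher and 18.7% lower (66.0% in all). In WT 3 rose and 3 fell (plk1, fbxo43 and wee2 higher; cdk1, cdc20 and ccnb1 lower), where 38.1% of all tested genes were called higher and 22.2% lower (60.3% in all). These 2 comparisons and those of the genotypes share libraries, so their values are given side by side only.

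Plk1 rose in both genotypes, by 0.73 ± 0.07 in the mutants (adjusted p = 5.4e-05) and 0.94 ± 0.07 in WT (adjusted p = 2.6e-05). Both calls held in each of 20 alternative settings. Fbxo43 was at -0.13 ± 0.08 in the mutants (adjusted p = 0.19) and rose by 0.87 ± 0.08 in WT (adjusted p = 8.3e-05). In WT the level of fbxo43 was higher in both stage II libraries than in both stage I libraries, and in the mutants the stages overlapped. With median-of-ratios scaling fbxo43 fell by 0.56 in the mutants (adjusted p = 0.0021). Wee2 was at -1.30 ± 0.61 in the mutants (adjusted p = 0.094) and rose by 1.99 ± 0.61 in WT (adjusted p = 0.023), a call lost without either WT stage II library (adjusted p = 0.073 and 0.097). The size rested on the WT stage I libraries: it was 0.80 without replicate 1 and 3.17 without replicate 2. The call was also lost with no filter (adjusted p = 0.082), median-of-ratios scaling (0.051), a robust prior (0.10) or only the libraries compared (0.073).

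Ccnb1 fell by 0.89 in the mutants (adjusted p = 7.6e-05) and by 0.39 in WT (adjusted p = 0.0055). Ccnb2 fell by 0.48 in the mutants (adjusted p = 6.5e-04) and was at -0.04 ± 0.07 in WT (adjusted p = 0.67). Cdk1 fell by 0.33 in the mutants (adjusted p = 0.010), a call lost without replicate 1 of stage I (adjusted p = 0.067) or of stage II (adjusted p = 0.054). In WT it fell by 0.60 (adjusted p = 6.6e-04). Cdc20 fell by 0.36 in the mutants (adjusted p = 0.0038) and by 0.46 in WT (adjusted p = 0.0013).

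The directions of the falls depend on how the libraries are scaled. The median log2 change of all tested genes at stage II relative to stage I was 0.32 in the mutants and 0.15 in WT with FPKM as deposited. It was -0.02 in both with median-of-ratios scaling, and 0.65 in the mutants and 0.41 in WT with equal summed FPKM. The share of called genes that were higher moved with it: in the mutants it was 71.6% as deposited and 47.9% with median-of-ratios scaling, and in WT 63.2% and 49.3%. Relative to the deposited median, plk1 was at 0.40 in the mutants and 0.79 in WT, ccnb1 at -1.22 in the mutants and -0.54 in WT, and cdc20 at -0.68 in the mutants and -0.61 in WT. Quantile normalization turned the sign of cdc20 and ccnb2 in both genotypes, of fbxo43 in the mutants and of ccnb1 in WT. Equal summed FPKM turned ccnb2 in WT and fbxo43, cdk1 and cdc20 in the mutants. Without a change of sign, quantile normalization ended the falls of ccnb1 (-0.05, adjusted p = 0.72) and cdk1 (-0.20, adjusted p = 0.071) in the mutants. Equal summed FPKM likewise ended those of ccnb2 in the mutants (-0.10, adjusted p = 0.25) and of ccnb1 (-0.07, adjusted p = 0.48) and cdc20 (-0.14, adjusted p = 0.14) in WT. The falls of cdk1 in WT and the rises of plk1 in both genotypes kept their calls under each of these scalings. In the genotype comparison of stage I no member changed its sign under these scalings.

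The wider pathway was followed with 8 lists covering the cyclin-CDK core, the CDK1 tyrosine kinases and phosphatases, the MAP kinase cascade, the Polo and Aurora kinases, the anaphase-promoting complex, the Greatwall and PP2A branch, cAMP and progestin signalling, and the translational control of stored mRNA. Beside the members they held 90 gene IDs, of which 73 were tested. At stage II 14 of the 73 (19.2%) were higher in mutants and 14 (19.2%) lower, beside 25.4% and 19.2% of all tested genes. At stage I 10 of the 73 (13.7%) were higher in mutants and 23 (31.5%) lower, beside 18.4% and 26.9% of all tested genes. The median over these genes was -0.03 at stage II and -0.14 at stage I.

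**Figure D4:**
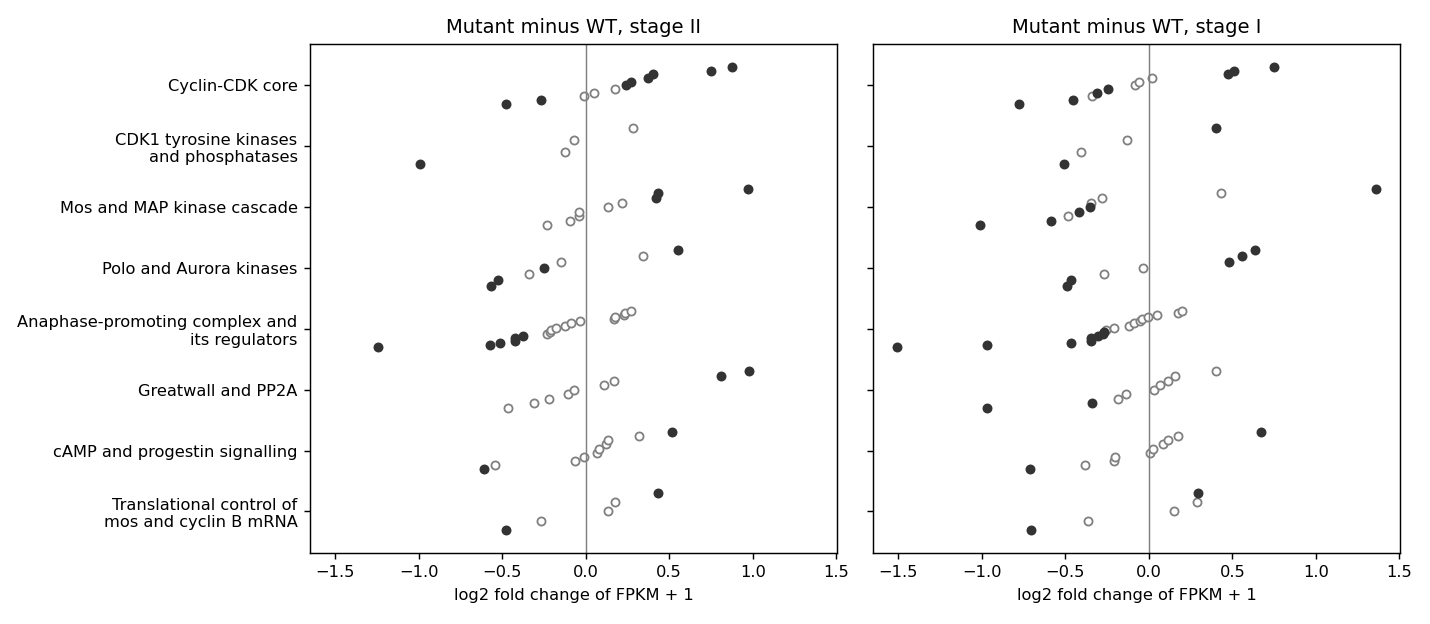
Log2 fold changes of log2(FPKM + 1), mutant over WT, of the tested pathway genes other than the members, 1 row per list, stage II on the left and stage I on the right with a shared axis; filled points have an adjusted p under 0.05. Among the anaphase-promoting complex genes anapc15 lies far to the left at both stages (-1.25 at stage II and -1.51 at stage I).

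Subunits of the anaphase-promoting complex, the ubiquitin ligase that Fbxo43 inhibits and Cdc20 activates, fell in the mutants where they were called. Of 12 tested subunits, 5 fell and 0 rose at stage II by limma, and 6 fell and 0 rose at stage I, where 19.2% of all tested genes fell at stage II and 26.9% at stage I. At an unadjusted p under 0.05, 6 were lower and 2 higher at stage II, and 7 were lower and 0 higher at stage I. The shares of all tested genes at that unadjusted threshold were not taken, so those counts have no background to be read against. The median fold change was -0.21 at stage II and -0.26 at stage I. Anapc15 changed most, with 38.0 and 36.2 FPKM in mutant stage II libraries, against 93.8 and 85.0 FPKM in WT stage II libraries, and 26.1 and 33.1 FPKM in mutant stage I libraries, against 84.7 and 85.8 FPKM in WT stage I libraries. Its fold change was -1.25 ± 0.11 at stage II (adjusted p = 1.3e-04) and -1.51 ± 0.11 at stage I (adjusted p = 4.2e-05). Anapc16 was at -0.57 at stage II (adjusted p = 5.5e-04) and at -0.30 at stage I (adjusted p = 0.0098). Relative to stage I, 9 subunits rose and 2 fell at stage II in the mutants, and 7 rose and 1 fell in WT, where 47.3% of all tested genes rose in the mutants and 38.1% in WT. Anapc1 was higher by 1.26 in the mutants and 0.98 in WT.

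In the cyclin-CDK core, members included, 6 of 14 rose and 2 fell in mutants at stage II, and 5 rose and 5 fell at stage I. Over all tested genes, 25.4% rose and 19.2% fell at stage II, and 18.4% rose and 26.9% fell at stage I. The counts of each list below stand beside the same shares. Ccna2, an A-type cyclin, had 123 and 144 FPKM in mutant stage I libraries, against 80.8 and 76.4 FPKM in WT stage I libraries, a fold change of 0.75 ± 0.09 (adjusted p = 4.2e-04). Like fbxo43, ccnb1 and ccnb2 it had a lower genotype effect at stage II than at stage I, by -1.02 ± 0.13 (adjusted p = 9.0e-04). The core as a whole did not share that order. In the test of the difference 3 of the 14 were lower (ccna2, ccnb1 and ccnb2), beside 13.0% of all tested genes. The higher effect at stage II was called for 4 (cks2, cdk2, ccnh and ccne2), beside 23.3%. Ccne2 was at 1.53 ± 0.23 (adjusted p = 0.0021) and cks2 at 0.93 ± 0.15 (adjusted p = 0.0029). Cks2, a small subunit of CDK complexes, had 44.6 and 49.6 FPKM in mutant stage II libraries, against 23.4 and 27.1 FPKM in WT stage II libraries (0.87 ± 0.11, adjusted p = 5.5e-04). Cdk7, of the CDK-activating kinase, was lower in mutants at both stages, at -0.48 at stage II (adjusted p = 0.0027) and -0.46 at stage I (adjusted p = 0.0030).

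Of the 5 tested kinases and phosphatases that set Cdk1 tyrosine phosphorylation, wee2 among them, 1 fell at stage II, and 1 rose and 1 fell at stage I. At stage I the phosphatase cdc25b, which activates Cdk1, rose by 0.40 ± 0.09 (adjusted p = 0.0078), with 70.3 and 82.3 FPKM in mutant libraries, against 55.6 and 59.0 FPKM in WT libraries. Pkmyt1, an inhibitory kinase of Cdk1, fell by 0.51 at stage I (adjusted p = 0.0029), with 20.1 and 22.6 FPKM in mutant libraries, against 31.9 and 29.6 FPKM in WT libraries. In the stage I mutants the level of the activating phosphatase was thus higher and that of pkmyt1 lower, while cdk1 itself was lower. The inhibitory kinase wee2 went the other way from pkmyt1. It lay above WT in both mutant stage I libraries, though not called (1.62 ± 0.61, adjusted p = 0.062). Wee1, with 9.30 and 8.93 FPKM in mutant stage I libraries against 10.7 and 14.3 FPKM in WT, was not called either.

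Among 8 tested Polo and Aurora genes, plk1 included, 1 rose and 3 fell in mutants at stage II, and 4 rose and 2 fell at stage I. Tpx2, which binds and activates Aurora A on the spindle, had 436 and 448 FPKM in mutant stage II libraries, against 540 and 511 FPKM in WT stage II libraries, and 309 and 364 FPKM in mutant stage I libraries, against 230 and 227 FPKM in WT stage I libraries. It rose by 0.56 at stage I (adjusted p = 0.0015), and the difference between the stages was -0.80 ± 0.12 (adjusted p = 0.0022). Aurkb, the kinase of the chromosomal passenger complex, was lower in mutants at both stages, at -0.52 at stage II (adjusted p = 0.0011) and -0.49 at stage I (adjusted p = 0.0013). Plk4, the kinase of centriole duplication, had 20.2 and 19.6 FPKM in mutant stage II libraries, against 28.7 and 31.5 FPKM in WT stage II libraries. It was higher at stage II than at stage I in both genotypes, by 1.89 in the mutants (adjusted p = 1.2e-05) and 1.99 in WT (adjusted p = 1.4e-05).

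Downstream of the position of mos, 3 of 9 tested MAP kinase cascade genes rose in mutants at stage II, and 1 rose and 4 fell at stage I. Map2k2a, a kinase that phosphorylates MAP kinase, had 71.7 and 70.6 FPKM in mutant stage II libraries, against 52.5 and 53.5 FPKM in WT stage II libraries, and 47.4 and 46.4 FPKM in mutant stage I libraries, against 74.3 and 67.4 FPKM in WT stage I libraries. It rose by 0.42 at stage II (adjusted p = 0.0027) and fell by 0.58 at stage I (adjusted p = 4.9e-04), and the difference of 1.00 ± 0.10 between the stages was called (adjusted p = 3.3e-04). Its order was thus opposite to that of ccnb1 at each stage.

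In the Greatwall and PP2A branch, 2 of 9 tested genes rose in mutants at stage II and 2 fell at stage I. Ppp2r2d, a regulatory subunit of PP2A, fell by 0.97 at stage I (adjusted p = 2.1e-04), with 21.6 and 23.0 FPKM in mutant libraries, against 47.0 and 42.4 FPKM in WT libraries. Its relative ppp2r2aa rose by 0.97 at stage II (adjusted p = 5.4e-04), with 16.1 and 14.7 FPKM in mutant libraries, against 7.47 and 7.20 FPKM in WT libraries.

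Upstream, cAMP-dependent protein kinase holds prophase arrest, and of 10 tested genes of cAMP and progestin signalling 1 rose and 1 fell in mutants at each stage. The regulatory subunit genes prkar1aa and prkar1ab differed in opposite directions at stage I, at -0.71 (adjusted p = 0.0024) and 0.67 (adjusted p = 0.0065). Prkar2aa, another regulatory subunit, was higher at stage II than at stage I by 0.99 in the mutants and 1.00 in WT. Of 5 tested translational regulators, cpeb1b, which binds stored cyclin B mRNA, was higher in mutants at both stages, with 441 and 459 FPKM in mutant stage II libraries, against 327 and 340 FPKM in WT stage II libraries (0.43, adjusted p = 0.0019). At stage I its values were 658 and 698 FPKM in mutant libraries, against 541 and 564 FPKM in WT libraries (0.29, adjusted p = 0.0096), a call lost without mutant replicate 2 (adjusted p = 0.054). Cpeb4a, of the same family, was lower in mutants at both stages, at -0.48 at stage II (adjusted p = 0.0076; 0.051 without WT replicate 2) and -0.71 at stage I (adjusted p = 0.0011).

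The genes most like each member across the 8 libraries were picked by a single distance. Likeness was the root mean square difference between centred log2(FPKM + 1) values, over 9178 named genes with a mean of at least 5 FPKM, and the 8 libraries share their 4 groups. For cdc20 the nearest genes were btg3 (0.031) and rbpms2a (0.052), and for ccnb2 ctsba (0.041) and cdca7b (0.049). Cdk1 was nearest to ptmab (0.049) and tmed2 (0.058), plk1 to nvl (0.062) and snrka (0.064), and ccnb1 to gyg1a (0.080) and eif4ebp3l (0.085). Fbxo43 was nearest to eomesa (0.095) and rnf41 (0.097). These distances stand beside the members' own root mean square variation of 0.25 for ccnb2 to 0.43 for plk1. Wee2 had no near match, since its closest gene stood at 0.64 against its own variation of 1.03.

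Summed markers of other cells did not overlap between the genotypes at either stage, except those of stroma and endothelium at stage II. Of 10 leukocyte markers 5 reached 1 FPKM in any library, and they summed to 35.2 to 42.1 FPKM in mutant stage II libraries, against 28.5 to 29.5 FPKM in WT stage II libraries, and to 39.0 to 41.5 FPKM in mutant stage I libraries, against 30.7 to 31.4 FPKM in WT stage I libraries. Of the 5 tested, 3 rose in mutants at each stage, beside 25.4% of all tested genes at stage II and 18.4% at stage I. Most of each sum was rac2, with 28.0 and 32.0 FPKM in mutant stage II libraries, against 26.7 and 26.5 FPKM in WT. At stage I rac2 had 26.0 and 26.4 FPKM in mutant libraries, against 26.8 and 26.7 FPKM in WT. Lyz was at 0 in both mutant stage II libraries, against 0.584 and 0.460 FPKM in WT. The macrophage marker mpeg1.1 was at 0 in every library, and ptprc was below 1 FPKM in each. Granulosa and theca markers (5 of 10 at 1 FPKM or more) summed to 335 to 354 FPKM in mutant stage II libraries, against 95.0 to 123 FPKM in WT stage II libraries, and to 102 to 108 FPKM in mutant stage I libraries, against 254 to 274 FPKM in WT stage I libraries. Nearly all of that sum came from cyp11a1 and cyp17a1, which went opposite ways at stage I. Cyp11a1 had 0.153 and 0.0626 FPKM in mutant stage I libraries, against 221 and 203 FPKM in WT stage I libraries. Cyp17a1 had 96.2 and 105 FPKM in those mutant libraries, against 47.9 and 47.6 FPKM in WT. The lower stage I sum in mutants thus rested on cyp11a1. The granulosa receptor fshr was at 0 throughout, and star, lhcgr, amh and foxl2a were below 1 FPKM in every library. Gsdf, foxl2b and cyp19a1a reached at most 5.41, 1.77 and 1.03 FPKM. Red blood cell markers (3 of 6 gene IDs at 1 FPKM or more) summed to 4.38 to 5.27 FPKM in mutant stage II libraries, against 0.623 to 0.727 FPKM in WT stage II libraries, and to 2.78 to 4.86 FPKM in mutant stage I libraries, against 1.09 to 2.03 FPKM in WT stage I libraries. Stroma and endothelium markers (4 of 8) summed to 4.29 to 5.92 FPKM in mutant stage II libraries, against 5.73 to 6.50 FPKM in WT stage II libraries, and to 6.42 to 7.96 FPKM in mutant stage I libraries, against 2.57 to 3.37 FPKM in WT stage I libraries. Of the 4 tested of these, 1 rose and 2 fell in mutants at stage II, and 1 rose and 0 fell at stage I. Of 4 tested granulosa and theca markers, 2 rose and 1 fell at stage II, and 1 rose and 2 fell at stage I. Of 2 tested red blood cell markers, 2 rose at stage II and 1 at stage I. Over all tested genes, 25.4% rose and 19.2% fell at stage II, and 18.4% rose and 26.9% fell at stage I.

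Markers of dividing cells (8 of 10 at 1 FPKM or more) summed to 1738 to 1793 FPKM in mutant stage II libraries, against 1615 to 1652 FPKM in WT stage II libraries, and to 1315 to 1407 FPKM in mutant stage I libraries, against 1235 to 1238 FPKM in WT stage I libraries. At each stage 4 of the 8 tested rose and 1 fell in mutants. Beside them, 25.4% of all tested genes rose and 19.2% fell at stage II, and 18.4% rose and 26.9% fell at stage I. Pcna, the highest of these markers in each library, had 515 to 588 FPKM. Whether the oocytes or other cells held the transcripts of this list was not tested. The part of cells other than oocytes in the differences of the 7 genes was not tested either.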

How the data were processed

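RNA-seq values were FPKM that the authors deposited as 1 merged table. Per the submitters' processing notes, Trim Galore, STAR 2.5.3a and Cufflinks 2.2.1 were used with danRer11; how multi-mapped reads were handled was not given in the sources used here. The table held 32197 rows for 32055 gene IDs; 24 repeated rows were dropped, and 103 IDs whose rows conflict were left out, none of them among the 8 genes, which left 31952. CUT&Tag libraries (3, of which 1 is IgG) were not analysed here, and no DNA or protein sequence was used here.

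The filter kept 13862 genes that reached 1 FPKM in 2 or more libraries. Tests used log2(FPKM + 1), which understates changes of low genes, unscaled beyond the deposited values. limma 3.58.1 in R 4.3.3 fitted 4 group means with a trended empirical Bayes prior (4 residual and 3.78 prior degrees of freedom) and 5 contrasts, namely mutant against WT at each stage, stage II against stage I in each genotype, and the difference between the genotype effects. p-values were Benjamini-Hochberg adjusted over all tested genes, with calls at 0.05. The fit was tested on simulated data. FPKM hide absolute depth; relative depth, read from steps between very low values and sought only near equal depth, was 0.889 to 1.04 of WT stage I replicate 1, and no interval could be given.

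The 8 genes, the pathway lists and the marker lists were chosen with earlier results of these data known. All 8 genes are named; from each pathway list and contrast up to 4 called genes with the largest change and no overlap between the groups could be named, and a selection of these is described. A gene named in one contrast was followed in others. Those outside the rule (cdc26, anapc11 and the marker genes) were picked with their values known. Alternatives covered the pseudocount (0.1 and 5), the filter, the scaling, the prior, the replicate number as a block, the libraries in the fit and leaving out each library. The main fit did not pair samples by replicate number. Whether same-numbered libraries were prepared together was not tested.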

Additional observations from a re-analysis of the deposited data

Results flagged for a closer look

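Of the 7 tested genes, 4 had a genotype effect that differed between the stages, by the test of the difference itself (limma, adjusted over all tested genes; mutant minus WT at stage II, less the same at stage I). Over all tested genes 36.4% were called in that test. The difference was -3.29 for wee2 (adjusted p = 0.021), -1.0 for fbxo43 (adjusted p = 6.0e-04), -0.505 for ccnb1 (adjusted p = 0.015) and -0.44 for ccnb2 (adjusted p = 0.013), all on the log2(FPKM + 1) scale. For wee2 and ccnb1 the mutant libraries lay below WT at stage II and above WT at stage I. For fbxo43 and ccnb2 the stage I effect was the one called in the main fit. The stage II effect of ccnb2 was also called with quantile normalization (0.45, adjusted p = 0.0039) or equal summed FPKM (0.22, adjusted p = 0.040). The value of wee2 was -2.10 without WT stage I replicate 1 and -4.47 without WT stage I replicate 2. Its call was lost when any library outside stage I WT was left out, with no filter or with a robust prior.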

How the results depend on the processing

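With 2 libraries a group and 1 pooled estimate of spread, small effects rest on single libraries. Of the members' fold changes under alternatives, 605 of 693 kept their direction and side of the threshold, 49 lost a call, 21 gained one and 18 changed sign; of those of named pathway genes 802 of 832 kept both and 30 lost a call. The fbxo43 and ccnb2 calls at stage I and the cdc20 call at stage II held in each alternative run. So did the fbxo43 and cdk1 calls between stages in WT and the plk1 calls between stages in both genotypes. The fbxo43 call for the difference between the genotype effects held in each run as well.

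Sign changes came mostly from scaling. Under quantile normalization, mutant over WT at stage II was 0.0055 for fbxo43 and 0.069 for ccnb1. Stage II over stage I was then 0.096 for fbxo43, 0.32 for cdc20 (adjusted p = 0.0035) and 0.39 for ccnb2 (adjusted p = 0.0046) in the mutants, and 0.026 for cdc20, 0.43 for ccnb2 (adjusted p = 0.0032) and 0.058 for ccnb1 in WT; the difference between the stages was 0.078 for plk1, -0.10 for ccnb1 (adjusted p = 0.60) and -0.04 for ccnb2 (adjusted p = 0.83). Under median-of-ratios scaling, plk1 was -0.049 at stage II and the difference between the stages was -0.10 for cdc20. Scaling to equal summed FPKM, added after the data were seen, gave 0.051 for fbxo43 and 0.065 for cdk1 in mutant over WT at stage II, and stage II over stage I was 0.25 for fbxo43 (adjusted p = 0.022), 0.048 for cdk1 and 0.027 for cdc20 in the mutants and 0.28 for ccnb2 in WT (adjusted p = 0.010). Without mutant stage II replicate 1, fbxo43 at stage II was 0.017. The cause was not tested.

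At stage II 1 member was called; 2 were called with a pseudocount of 5, a mean of at least 5 FPKM, a robust prior, the replicate block, only the 4 libraries compared or equal summed FPKM, and 3 with quantile normalization. Between the stages in the mutants 5 members were called, but 3 with quantile normalization or equal summed FPKM. The 6 members called at stage I became 4 with no filter, quantile normalization, no trend in the prior or only the libraries compared. They became 5 with median-of-ratios scaling and 7 with a mean of at least 5 FPKM. Leaving out each library gave 1 to 2 members and 4257 to 6246 genes called at stage II, 2 to 6 and 4443 to 6104 at stage I, 4 to 6 and 7730 to 9182 between stages in the mutants, 5 to 6 and 6849 to 8158 in WT, and 2 to 4 and 3626 to 5029 for the difference. The share of called genes that were higher was 40.6% at stage I and 64.2% for the difference, against 51.2% and 47.1% with median-of-ratios scaling. For mutant against WT at stage II it was 57.0%, against 47.3% with median-of-ratios scaling and 66.4% with equal summed FPKM. The replicate number as a block ended the ccnb1 call at stage I (adjusted p = 0.057). It also made wee2 called at stage I (1.62, adjusted p = 0.043) and stage II (-1.66, adjusted p = 0.040). Same-numbered libraries deviated together with r of -0.041 to 0.065 over the tested genes. That is little shared deviation, but it cannot show whether same-numbered libraries were prepared together.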
